A study of Mus musculus with 5 samples.

Results

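The C1q complement subunits are the products of 3 genes, C1qa, C1qb and C1qc, which encode the A, B and C chains of C1q. They were read on the 5 probe sets annotated to exactly 1 of these symbols, out of 45037 probe sets and 18193 genes with a probe set of their own. A probe set is a group of short probes on an Affymetrix array that together report 1 transcript. C1qa and C1qc had 1 probe set each and C1qb had 3. The genes were chosen because they were much higher in brain dendritic cells than in monocytes on these same arrays, so that difference is given as a description and was not tested.

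C1q is the recognition molecule of the classical complement pathway. Its chains trimerise through a collagen-like stalk and end in globular heads that bind antibody complexes, dying cells and other targets. The protease C1r then activates the protease C1s, which cleaves C4 and C2. Most complement proteins of blood come from the liver, whereas C1q is made mainly by macrophages and immature dendritic cells. In the brain microglia are its main source, and C1q there is known for tagging synapses and apoptotic cells.

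Expression was measured in 5 samples from female C57BL/6 mice aged 6 to 8 weeks, each hybridised to its own array. Brain dendritic cells (DCs), 2 samples, were sorted as Lin-, CD45hi and CD11c+ from mice that carried a subcutaneous B16-Flt3L tumour for 12 days. B16-Flt3L is a mouse melanoma line that makes Flt3 ligand, a growth factor for dendritic cells, so these cells come from mice with expanded dendritic cells. Bone marrow monocytes, 3 samples, were sorted as SSClo, CD11bhi and CD115+ cells, with no treatment named in their labels. Nothing in the labels ties the samples to separate animals, so the p-values reflect the spread between samples only, which may be technical. Cell type, tissue and tumour treatment all differ between the groups, and their effects cannot be told apart. The series was set up to compare receptors, transcription factors and antigen presentation molecules between these cells, with complement outside the named aims.

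The deposited values are log2 values around a baseline of each probe set. They show differences between arrays within a probe set, but neither an absolute level nor which of 2 genes was more abundant. The log base is inferred from the RMA method. All differences are log2, brain DC minus monocyte. Where another gene is said to have changed, its limma adjusted p over all 18193 genes was under 0.05. With 2 and 3 arrays the smallest p of an exact two-sided permutation test is 0.1, so limma's model over all genes was used.

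All C1q probe sets were far higher in brain DCs than in monocytes, by 22.1-fold to 168-fold. In all 5 both brain DC arrays lay above every monocyte array, which was true of 30.6% of all probe sets. Since the genes were chosen on this contrast, nothing is read from that share.

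C1qa, the A chain gene, stood at 3.51 and 3.55 in the brain DC arrays and at -0.94, -1.22 and -0.64 in the monocyte arrays (probe set 1417381_at). The brain DC arrays differed by only 0.042, and the gap from the lower of them to the highest monocyte array was 4.15. The difference of means was 4.46 ± 0.20 (SE of the limma fit, n = 2 and 3), or 22.1-fold. It ranked 109 of 45037 probe sets, counted from the largest increase.

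C1qc, the C chain gene, was close to C1qa in size. Its probe set 1449401_at was at 3.85 and 4.06 in brain DCs against -0.49, -0.86 and -0.64 in monocytes. The groups were 4.34 apart at their nearest arrays. The difference was 4.62 ± 0.17 (SE, n = 2 and 3), or 24.6-fold, and ranked 99.

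C1qb, the B chain gene, had the largest differences of the family, and they depended on the probe set. Probe set 1417063_at gave 5.20 and 5.18 in brain DCs against -0.91, -1.07 and -0.89 in monocytes, a difference of 6.14 ± 0.15 (SE, n = 2 and 3), or 70.7-fold. This was the tightest of the 5, with an SD of 0.017 over the brain DC arrays and 0.097 over the monocyte arrays. The other C1qb probe sets end in _x_at, the array's mark for probes that can also match other transcripts. Probe set 1437726_x_at gave 7.08 and 7.01 in brain DCs against -0.35, -0.54 and -0.16 in monocytes. Its difference of 7.40 ± 0.17 (SE, n = 2 and 3), or 168-fold, ranked 8 of 45037. Probe set 1434366_x_at gave 4.81 and 5.05 in brain DCs against -0.30, -0.45 and 0.06 in monocytes, a difference of 5.16 ± 0.20 (SE, n = 2 and 3), or 35.9-fold. It held the only monocyte value of the 15 above 0. The C1qb probe sets thus spanned 2.23 on the log2 scale for 1 gene, against SEs of 0.15 to 0.20, so the size of the C1qb difference depends on the probe set read. When the 3 were averaged, C1qb differed by 6.23 ± 0.14 and ranked 9 of 18193 genes, with C1qc at 45 and C1qa at 49.

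**Figure D1:**
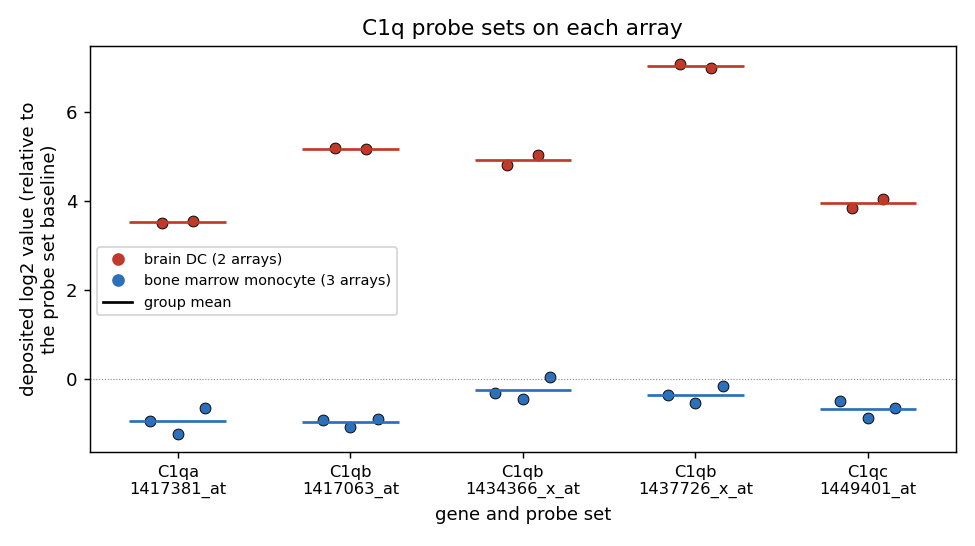
Deposited log2 value (vertical axis, relative to the baseline of each probe set) of the 5 C1q probe sets on each array, with brain DC arrays in red, monocyte arrays in blue and a line at each group mean. The brain DC values lie between 3.51 and 7.08 and the monocyte values between -1.22 and 0.06, and heights of different probe sets cannot be compared as levels.

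Over the brain DC arrays the SDs of the C1q probe sets ran from 0.017 to 0.171, with 1 of 5 above the median of all probe sets, 0.165. Over the monocyte arrays they ran from 0.097 to 0.291, with 4 of 5 above the median of all probe sets, 0.166. Monocyte replicate 2 was the lowest monocyte array in all 5 C1q probe sets, and monocyte replicate 3 the highest in 4. Over all probe sets replicate 2 was the lowest monocyte array in 37.9%, and replicate 3 the highest in 34.0%. Among probe sets with both brain DC arrays above every monocyte array, replicate 2 was the lowest in 43.6%. The 5 C1q probe sets are not independent, since 3 of them read C1qb. The brain DC arrays had no common order, with replicate 2 above replicate 1 for C1qa, C1qc and 1 of the C1qb probe sets.

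The genes lie side by side on mouse chromosome 4 in the order C1qb, C1qc, C1qa, with no other gene between them in the RefSeq table of assembly GRCm38.p6. The protein-coding genes just outside the cluster had small differences that were not called. Epha8, an ephrin receptor gene next to C1qa, was at 0.28 ± 0.17 (limma adjusted p = 0.25). On the C1qb side Ephb2 was not analysed here, and the next gene, Lactbl1, was at 0.24 ± 0.14 (limma adjusted p = 0.218).

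That the subunit genes rose together follows from how they were chosen and is no result. The 250 bases before the annotated start were read from RefSeq for C1qb (GRCm38.p6, chr4:136886201-136886450, minus strand) and C1qc (chr4:136892915-136893164, minus strand), 2 of the 3 genes. They are shown 5′ to 3′, with matches to searched motifs in capitals.
C1qb: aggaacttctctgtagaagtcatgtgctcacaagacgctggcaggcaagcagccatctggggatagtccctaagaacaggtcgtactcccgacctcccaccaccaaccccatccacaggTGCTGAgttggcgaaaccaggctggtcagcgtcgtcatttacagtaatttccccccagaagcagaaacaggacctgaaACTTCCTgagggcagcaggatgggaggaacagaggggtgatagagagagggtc
C1qc: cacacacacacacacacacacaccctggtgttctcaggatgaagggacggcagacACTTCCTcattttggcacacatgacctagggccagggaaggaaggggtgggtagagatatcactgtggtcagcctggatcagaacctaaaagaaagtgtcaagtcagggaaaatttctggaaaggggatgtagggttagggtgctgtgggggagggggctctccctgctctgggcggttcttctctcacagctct
Both windows held AGGAAGT, the core bound by ETS factors such as PU.1, on the opposite strand, 53 to 47 bases before the C1qb start and 195 to 189 bases before the C1qc start. Searched on both strands, that motif occurs in 7.69% of 32851 promoter windows of the same length. C1qb also held TGCTGA, part of the site of MAF factors, 131 to 126 bases before its start, a motif found in 16.1% of windows. The AP-1 motif TGACTCA (4.46% of windows) and the TATA box TATAAA (12.4%) had no match in either window. The matches do not overlap each other, and a match describes the letters only.

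Among factors known to act on C1q genes, the 2 tied to myeloid ETS and IRF sites rose modestly. By limma, 2 of 4 measured factors were higher and 0 lower (1 lower at an unadjusted p under 0.05), where 16.9% of all genes were called higher and 16.9% lower. Spi1, which encodes PU.1, was at -0.02 and 0.22 in brain DCs against -0.70, -0.93 and -0.46 in monocytes, a 1.74-fold rise (0.80 ± 0.17, limma adjusted p = 0.00974). Irf8, an interferon regulatory factor that partners PU.1, was at 0.39 and 0.53 against -0.76, -0.30 and -0.13, a 1.81-fold rise (0.86 ± 0.20, limma adjusted p = 0.013). For both genes the brain DC arrays lay above every monocyte array, which was also true of 30.6% of all probe sets. Neither call held when brain DC replicate 2 was left out. Maf, a macrophage factor, was at -0.58 ± 0.21 and not called (limma adjusted p = 0.075), and its 6 probe sets ran from -2.09 to 0.21. Nr1h3, which encodes the sterol-sensing receptor LXR alpha, was at 0.26 ± 0.14 (limma adjusted p = 0.184).

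Most other genes of the complement cascade were not called, as with genes in general. Over 5 lists that cover the pathway from its proteases to its receptors, limma called 4 of 38 measured genes higher and 5 lower, and left 29 uncalled. That is 23.7% called, against 33.8% of all genes, and the median difference was 0.14 against 0.09 for all genes. Without the gate genes Itgax and Itgam, 3 of 36 were higher and 4 lower.

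Neither protease that C1q activates was called higher. In the classical and lectin pathways limma called 0 of 11 measured genes higher (1 at an unadjusted p under 0.05) and 2 lower, and the median was 0.09. C1ra, which encodes C1r, fell 2.15-fold, from 1.02, 0.71 and 0.99 in monocytes to -0.22 and -0.17 in brain DCs (-1.11 ± 0.14, limma adjusted p = 9.91e-04). The probe set that C1ra shares with its near-identical copy C1rb was not used. C1s1, which encodes C1s, was at 0.13 ± 0.12 (limma adjusted p = 0.452), and C2, the substrate that gives the C3 convertase its protease, at 0.09 ± 0.12 (limma adjusted p = 0.611). C4b was read only on a probe set shared with C4a and has no value of its own. Fcnb, a ficolin of the lectin pathway made by marrow myeloid cells, fell 2.33-fold (-1.22 ± 0.14, limma adjusted p = 7.13e-04). Without brain DC replicate 1 the count of higher genes was 1.

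Downstream, C3 was not analysed here. Cfp, which encodes properdin, the stabiliser of the alternative pathway convertase, fell by 0.66 ± 0.16 on the log2 scale (limma adjusted p = 0.016), but its 2 probe sets lay at -1.67 and 0.36. That call was lost after quantile normalisation (-0.48, limma adjusted p = 0.0809) and without brain DC replicate 1 (-0.63, limma adjusted p = 0.0693). Without monocyte replicate 2 both measured genes of this list were lower. Cfb, which encodes factor B, was at -0.43 ± 0.19 (limma adjusted p = 0.122). In the terminal pathway, which builds the membrane attack complex, limma called 0 of 6 measured genes (2 at an unadjusted p under 0.05, both higher), with differences from -0.07 to 0.36.

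Among 12 measured complement regulators, limma called 2 higher and 0 lower, with 0 lower also at an unadjusted p under 0.05. The higher share was near the 16.9% of all genes. Clu, which encodes clusterin, an inhibitor of the membrane attack complex, stood at 1.19 and 0.92 in brain DCs against -0.69, -0.86 and -0.59 in monocytes. It rose 3.40-fold (1.77 ± 0.15, limma adjusted p = 1.49e-04), and its 4 probe sets ranged from 1.14 to 2.40. Cfi, which encodes the C3b-cleaving protease factor I, rose 1.71-fold (0.78 ± 0.18, limma adjusted p = 0.0129), which missed the threshold once brain DC replicate 2 was left out (0.72, limma adjusted p = 0.06). Serping1, which encodes C1 inhibitor, the regulator that acts on C1 itself, was at 0.15 ± 0.12 and not called (limma adjusted p = 0.389).

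Of 7 measured receptors for complement fragments, 2 are gate genes and no finding, Itgax (5.02 ± 0.21) for CD11c and Itgam (-2.28 ± 0.42) for CD11b. Of the other 5, limma called 1 higher and 1 lower, where 16.9% of all genes were called in each direction. C3ar1, the receptor of the C3a fragment, was at 0.88 and 1.23 in brain DCs against 0.35, -0.04 and 0.28 in monocytes, a 1.82-fold rise (0.86 ± 0.17, limma adjusted p = 0.00753), although its 3 probe sets ran from 0.01 to 1.60. C5ar1, the receptor of the C5a fragment, was at 0.43 ± 0.15 and not called (limma adjusted p = 0.0703), and it passed the threshold after quantile normalisation (0.51, limma adjusted p = 0.0334). Itgb2, the beta chain shared by CD11b and CD11c, fell by 0.63 ± 0.15 on the log2 scale (limma adjusted p = 0.017). Its call was lost without monocyte replicate 1 (limma adjusted p = 0.0592) or brain DC replicate 1 (limma adjusted p = 0.0916).

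Cell surface proteins reported to bind C1q went both ways: 3 of the 9 were called higher and 2 lower, where all genes gave 16.9% in each direction. Lrp1, which encodes CD91, a clearance receptor that works with calreticulin, was at -0.11 and 0.50 in brain DCs against 3.90, 3.80 and 3.58 in monocytes. It fell 11.8-fold (-3.56 ± 0.20, limma adjusted p = 2.53e-05). Cd93, once named as a C1q receptor of phagocytes, fell 3.05-fold (-1.61 ± 0.13, limma adjusted p = 1.40e-04), with its 5 probe sets from -3.39 to -0.09. The largest rise was in Lair1, an inhibitory receptor for collagen that also binds the C1q stalk. It stood at 0.19 and 0.08 in brain DCs against -1.10, -0.89 and -0.99 in monocytes, 2.18-fold higher (1.13 ± 0.13, limma adjusted p = 6.30e-04). The 3 probe sets of Lair1 ran from 0.33 to 1.55. C1qbp, a mainly mitochondrial protein that binds the globular heads, rose 2.06-fold (1.04 ± 0.17, limma adjusted p = 0.00282), with its 2 probe sets at 0.55 and 1.54. Calr, which encodes calreticulin, was 1.35-fold higher (0.43 ± 0.14, limma adjusted p = 0.0472), and this call was lost in 8 of 11 alternatives, among them any array left out other than brain DC replicate 1. The scavenger receptor genes Scarf1 (-0.18) and Megf10 (-0.07) were not called.

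**Figure D2:**
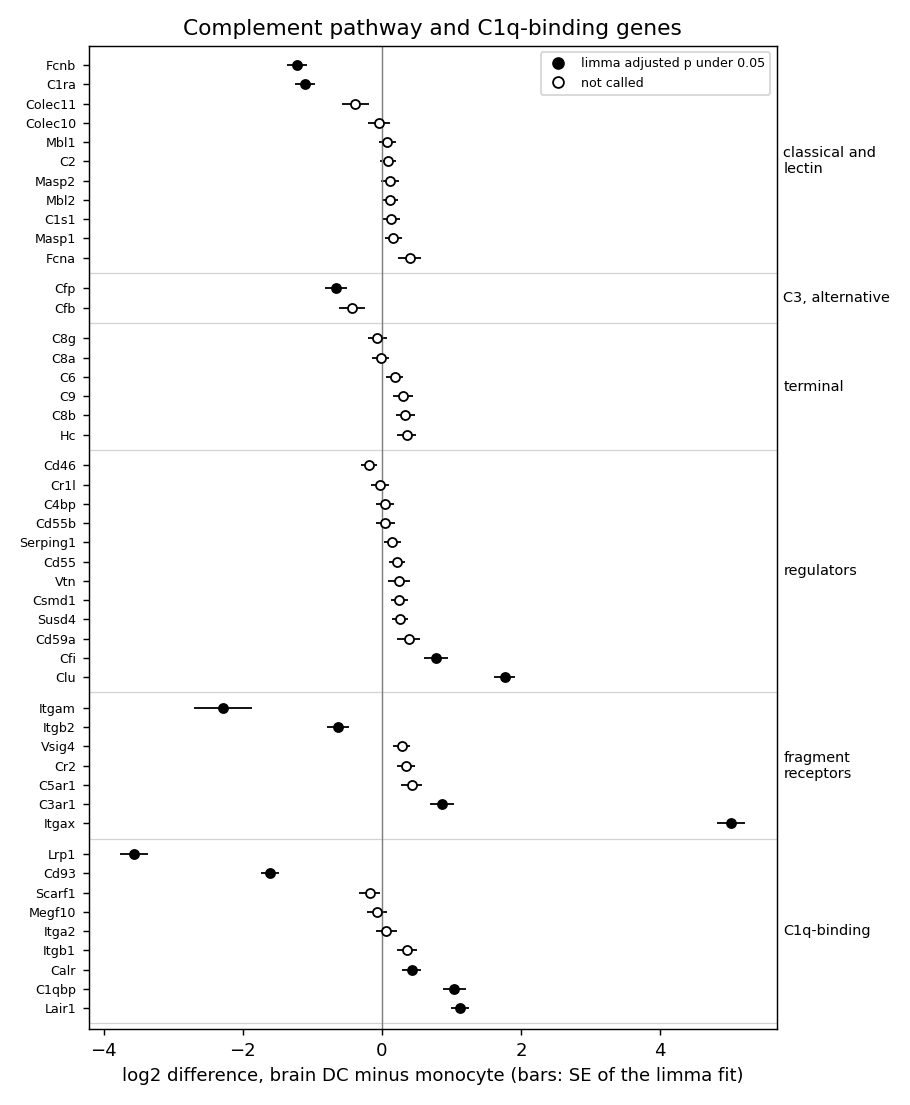
Log2 difference between brain DC and monocyte arrays (horizontal axis, bars show the SE of the limma fit, n = 2 and 3) for each measured gene of the complement pathway and of the C1q-binding surface proteins, with called genes filled and the rest open. Apart from the gate gene Itgax at 5.02, no gene shown exceeds the 1.77 of Clu, while Lrp1 reaches -3.56.

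Of 24 measured relatives that share the globular C1q domain, limma called 3 higher and 2 lower, a share of 20.8% against 33.8% of all genes, and their median was 0.13. The larger changes were falls in the matrix protein genes Emilin2, 4.95-fold (-2.31 ± 0.14, limma adjusted p = 3.22e-05), and Emilin1, 3.16-fold (-1.66 ± 0.14, limma adjusted p = 1.39e-04). Emilin1 has 2 probe sets, at -2.99 and -0.33. The higher ones were small: C1ql1, a brain C1q-like gene (0.49), C1qtnf12 (0.47) and Mmrn1 (0.41), the last named because it completes the count. With any 1 array left out, 0 or 1 genes of this list were called higher.

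Of 13 measured enzymes that modify and fold collagen-like stalks, limma called 1 higher and 3 lower, a share of 30.8% that is near the 33.8% of all genes. Their median was -0.20. Plod3, a lysyl hydroxylase and glycosyltransferase, fell 2.72-fold, from 1.93, 1.71 and 1.93 in monocytes to 0.18 and 0.64 in brain DCs (-1.44 ± 0.17, limma adjusted p = 6.97e-04). Plod1, another lysyl hydroxylase, was at -0.67 ± 0.17 and Colgalt1, a collagen galactosyltransferase, at -0.56 ± 0.15, both called, but without brain DC replicate 1 only 1 gene of this list was called lower. Plod1 also lost its call without monocyte replicate 3 (limma adjusted p = 0.0562), and Colgalt1 without monocyte replicate 1 (0.0788) or 2 (0.068). The 2 Plod1 probe sets lay at -1.22 and -0.12. Ppib, which encodes a proline isomerase of the endoplasmic reticulum, was at 0.43 ± 0.12 and lost its call without any 1 array (limma adjusted p from 0.067 to 0.119).

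Markers followed the labels. Leaving out the gate genes Itgax, Itgam and Csf1r, 13 of 13 measured conventional dendritic cell markers were higher in brain DCs and 7 of 7 measured monocyte markers were lower. Over all genes 16.9% were called in each direction. In sorted bulk samples, a change in the share of cells of a type and a change in RNA per cell cannot be told apart. Because values are relative to a baseline, it cannot be seen whether a marker is at 0 in a group.

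Most markers of microglia were higher in brain DCs, the direction for which the C1q genes were chosen. Of the 14 measured, 12 were called higher and 1 lower, where 16.9% of all genes were called in each direction. Their median was 1.73. Their summed values were 19.6 and 18.4 in the brain DC arrays and -3.97 to -2.26 in the monocyte arrays. Gpr34, a lysophospholipid receptor gene, rose 12.5-fold (3.64 ± 0.21, limma adjusted p = 2.65e-05). Fcrls, a microglial Fc receptor-like gene, rose 10.9-fold (3.45 ± 0.15, limma adjusted p = 6.89e-06), and Aif1, which encodes IBA1, rose 10.6-fold (3.41 ± 0.16, limma adjusted p = 1.14e-05). The lower marker was Cx3cr1, the fractalkine receptor, which monocytes also express (-2.56 ± 0.22, limma adjusted p = 1.55e-04), and Trem2, a lipid receptor of microglia, was at 0.07. Between the brain DC arrays, 8 of the 14 markers were higher in replicate 1 and 6 in replicate 2, and the median of replicate 2 minus replicate 1 was -0.08. For the C1q probe sets that quantity ran from -0.07 to 0.24. Single markers differed by more, in either direction, with P2ry12 at 3.18 and 2.06 and Cx3cr1 at -0.86 and -0.10. The gate required high CD45, which microglia carry at a lower level, but whether any passed it cannot be read from these values. The part of microglial RNA in the C1q differences was not tested.

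Markers of resident macrophages, the other main C1q source, were mixed. Of the 19 measured, 7 were called higher, 2 lower and 10 neither, where 16.9% of all genes were called in each direction. Their median was 0.20. Their summed values were 12.6 and 14.6 in brain DCs and 4.86 to 8.03 in monocytes. Pf4, a chemokine gene of border macrophages and platelets, was at 2.83 and 2.42 in brain DCs against -0.20, -0.23 and -0.39 in monocytes, a 7.45-fold rise (2.90 ± 0.16, limma adjusted p = 2.28e-05). Timd4, a phosphatidylserine receptor gene, rose 4.84-fold (2.28 ± 0.28, limma adjusted p = 7.86e-04), and Mertk, an efferocytosis kinase gene, 2.70-fold (1.43 ± 0.28, limma adjusted p = 0.00667). Adgre1, an adhesion receptor gene of macrophages, fell 2.53-fold (-1.34 ± 0.14, limma adjusted p = 3.94e-04). Apoe, a lipid carrier made by many macrophages, was at -0.02 ± 0.26, and the mannose receptor gene Mrc1 at 0.05 ± 0.21. The part of macrophage RNA in the C1q differences was not tested.

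Other brain cell markers were called higher about as often as genes in general (16.9%), but most differences lay above 0. All 8 choroid plexus markers did, with 5 higher at an unadjusted limma p under 0.05 and a median of 0.49. Among the 11 markers of neurons, glia and endothelium 10 did, with 3 higher at an unadjusted limma p under 0.05 and a median of 0.27. The median of all genes was 0.09. Of 8 measured choroid plexus markers 2 were higher, Ttr (7.22 ± 0.12, limma adjusted p = 5.74e-07) and Clic6 (0.67 ± 0.15), the second not called without brain DC replicate 2 (0.47, limma adjusted p = 0.0546). Of 11 measured markers of neurons, glia and endothelium 2 were higher, the endothelial genes Cldn5 (2.56 ± 0.24) and Pecam1 (0.59 ± 0.17), but Pecam1 lost its call without any 1 monocyte array (limma adjusted p from 0.0589 to 0.0908) or without brain DC replicate 1 (0.34, limma adjusted p = 0.172).

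**Figure D3:**
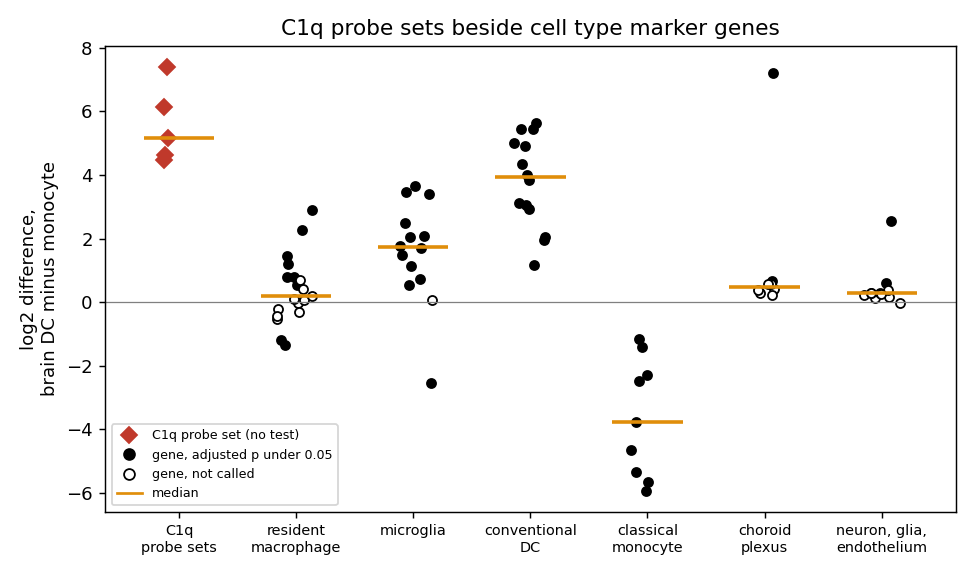
Log2 difference between brain DC and monocyte arrays (vertical axis) for the 5 C1q probe sets and for each measured gene of 6 marker lists, with called genes filled, others open and the median of each column as an orange line. The medians are 0.20 for resident macrophage, 1.73 for microglia and 3.92 for conventional dendritic cell markers. The C1q genes were chosen for the size of this difference, so their height beside the lists is no comparison.

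The 8 genes whose pattern over the 5 arrays lay closest to C1q are named as a description. Likeness was measured as the root mean square distance between a probe set and the mean of the C1q probe sets, each centred on its own mean. The nearest was Il1r2, the decoy receptor of interleukin 1, at a distance of 0.117 and a difference of 5.50. It was followed by Grasp (0.126), the natural killer receptor gene Klrb1b (0.148), the nuclear receptor gene Nr4a2 (0.158), Xcr1, the receptor of type 1 conventional dendritic cells (0.161), Itgae, which encodes CD103 (0.180), the sulfotransferase gene Sult1a1 (0.184) and the fatty acid carrier gene Fabp4 (0.213). Single C1q probe sets lay 0.210 to 0.902 from their own mean, and 7 of the 8 genes were nearer than that. For 4 of them the place rests on the probe set read. Grasp has 3 probe sets, with differences from 2.13 to 5.54, and Klrb1b has 5, from 3.76 to 6.94. Nr4a2 has 6, from 0.28 to 6.25, and Fabp4 has 4, from 0.87 to 5.55. With 5 arrays in 2 groups, such likeness mostly reflects the size of the group difference.

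Control probe sets also differed between the groups. Poly-A spike-ins, RNAs added during labelling, had a median difference of 2.59, with 24 of 24 probe sets higher in brain DCs. Hybridisation controls had a median difference of 1.04, with 18 of 18 higher. For 2 control transcripts, values at the 5′ end differed far more than at the 3′ end. The 5′ probe set of beta-actin was at -0.15 and 0.24 in brain DCs against -3.76, -3.80 and -1.37 in monocytes, and the 3′ probe set at -0.31 and -0.08 against 0.23, 0.18 and 0.23. For Gapdh, a glycolytic enzyme gene, the 5′ difference was 2.80 and the 3′ difference -0.12. The monocyte arrays thus had less 5′ signal relative to 3′ signal. Where in its transcript each C1q probe set lies is not given in the sources used here, and the part of these controls in the C1q differences was not tested.

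**Figure D4:**
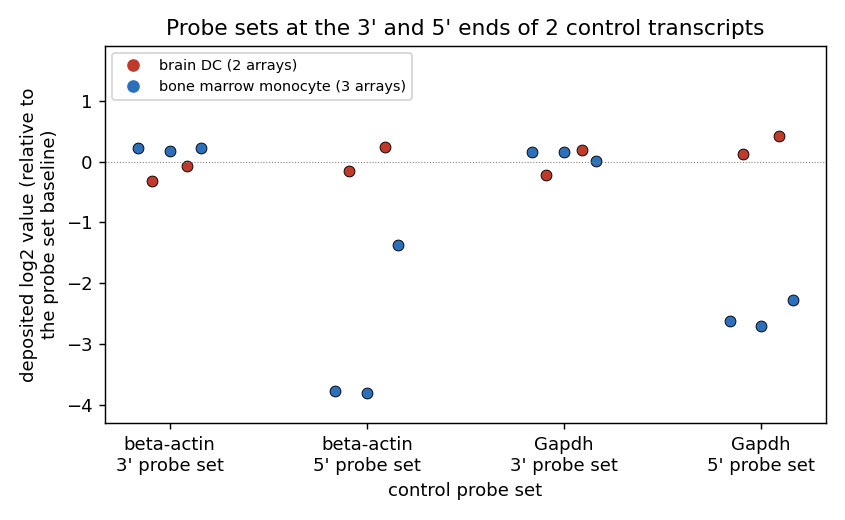
Deposited log2 value (vertical axis) of control probe sets at the 3′ and 5′ ends of the beta-actin and Gapdh transcripts on each array, with brain DC arrays in red and monocyte arrays in blue. At the 3′ ends all values lie between -0.31 and 0.23, while at the 5′ ends the monocyte arrays lie between -3.80 and -1.37 and the brain DC arrays between -0.15 and 0.41.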

How the data were processed

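The deposited table holds 45101 probe sets on 5 Affymetrix arrays, 64 of them controls. Per the submitters' processing notes the authors used RMA, which gives log2 values, and the deposited values lie around 0 (array medians -0.05 to 0.00), so each probe set has a baseline that is not given in the sources used here. RMA corrects background, quantile-normalises arrays and summarises probes. The C1q probe sets were read separately. Other genes were averaged over the probe sets with exactly 1 symbol (34945 of them; 932 had several symbols and 9160 none) and tested with limma 3.58.1 in R 4.3.3 (lmFit, eBayes, no covariate), Benjamini-Hochberg over 18193 genes, threshold 0.05, 3 residual degrees of freedom. All 3 C1q symbols matched the RefSeq gene table.

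The members and the 15 gene lists (161 of 185 genes measured) were chosen with earlier results of these data known. Named were the C1q probe sets, up to 4 called genes per list with the largest difference, a fixed set of pathway genes and the 8 nearest patterns; some others complete a count or mark a cell type. Data for 2 against 3 arrays were simulated with independent normal noise drawn from limma's own fitted spread (18193 genes, 5 draws, 200 changed). There 62.4% of changes of 1 and 98.0% of changes of 2 on the log2 scale were recovered, and 5.42% of calls were false. In the real data 6151 genes were called, so these rates hold for the simulated setting only. The alternatives were quantile normalisation, median subtraction, robust moderation, other probe set rules, a replicate block and leaving out each array. No 2 arrays held identical values, and their number limits the precision.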

Additional observations from a re-analysis of the deposited data

How the results depend on the processing

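The C1q differences kept their direction under all 8 alternatives run on them. Leaving out 1 array gave 4.32 to 4.61 for C1qa, 4.51 to 4.73 for C1qc, and 6.09 to 6.18, 5.04 to 5.31 and 7.30 to 7.49 for the C1qb probe sets 1417063_at, 1434366_x_at and 1437726_x_at. Quantile normalisation moved 1417063_at to 6.02, by more than its replicate SD. The 49 other named genes gave 539 values under alternatives, of which 0 reversed, 42 lost a call and 2 gained one. Quantile normalisation left 0 lower genes in the C3 and alternative list. Without monocyte replicate 3, limma called 11 microglia markers, 6 resident macrophage markers and 2 C1q-binding proteins higher. With all arrays these counts were 12, 7 and 3. The lower resident macrophage markers went from 2 to 3. Leaving out 1 array gave ranges of 0 to 1 higher genes in the classical and lectin list, 0 to 2 lower in the C3 and alternative list, 1 to 2 higher regulators, 1 to 2 lower fragment receptors, 0 to 1 higher C1q-domain relatives, 0 to 0 higher and 1 to 4 lower stalk enzymes, 0 to 2 higher C1q-linked factors, 1 to 3 higher choroid plexus markers and 1 to 2 higher neuron, glia and endothelium markers. The replicate numbers of the 2 groups are shared for 2 pairs only, whose deviations from the group mean correlated at 0.034 and 0.095. With 2 brain DC arrays the deviations of one mirror those of the other, so these correlations cannot decide whether same-numbered samples are paired. In the fit with the replicate block, monocyte replicate 3 has no partner and adds nothing, so its estimates are those without that array. In that fit 1 C1q-domain relative and 0 stalk enzymes were higher, the same counts as without monocyte replicate 3 and no block, and 1 C1q-linked factor, Maf, was lower (-0.71, limma adjusted p = 0.013). Over all genes it called 2513 higher and 3006 lower, against 2236 and 2657 without that array and no block. The cause of these changes was not tested. A filter on dim probe sets needs levels and was not run.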
